A study of Homo sapiens with 6 samples.

Results

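POU4F1, GATA2, GATA3, LHX1, LHX5, SIM1 and ISL1 are 7 transcription factor genes that mark or specify neurons other than dopamine neurons. They were followed in neural progenitors on day 11 of a differentiation of the established human embryonic stem cell line H9 toward midbrain dopamine neurons. Each gene was represented by 1 window on genome build hg19, and every peak that overlapped a window by at least 1 bp was taken. These were chr13:79163001-79188000 for POU4F1, chr3:128188001-128222000 for GATA2, chr10:8086001-8127000 for GATA3 and chr17:35285001-35312000 for LHX1. The others were chr12:113890001-113920000 for LHX5, chr6:100826001-100922000 for SIM1 and chr5:50669001-50701000 for ISL1. The windows held 53 of 44022 H3K4me3 peaks in Low-Chir, 38 of 46793 in Boost-Chir, 53 of 25725 H3K27me3 peaks in Low-Chir and 61 of 26260 in Boost-Chir.

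The study measured H3K4me3 and H3K27me3 by ChIP-seq in the Low-Chir and the Boost-Chir culture, with 1 library for each mark and culture. Both cultures were H9 cells grown with SHH C25II, LDN and SB431542, which were withdrawn on day 7, and both began in 0.7 µM CHIR99021, an inhibitor of GSK3 that activates WNT signalling. From day 4 the Boost-Chir culture received 7.5 µM until day 10. From day 10 both cultures had medium with 3 µM. The labels do not say which concentration Low-Chir cells had between day 4 and day 10. With 1 library per mark and culture there is no replicate, so differences are given as values, no test was made and no p-value was computed. The cell type on the label was not checked against marker genes, because peak lists hold no expression and peaks outside these windows were not assigned to genes.

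H3K4me3 is laid down at promoters that are active or poised. H3K27me3 is the product of Polycomb repressive complex 2 and covers developmental regulators that a cell keeps silent. Genes that carry both are often called bivalent, a state known from stem cells and progenitors. In the midbrain, POU4F1 (BRN3A) marks glutamatergic neurons of the red nucleus, GATA2 and GATA3 direct GABAergic fate, and LHX1 and LHX5 are expressed in young GABAergic neurons. ISL1 marks motor neurons, including those of the oculomotor nucleus, and SIM1 is best known from the hypothalamus.

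All 7 genes lay in long H3K27me3 domains in both cultures, and each domain carried some H3K4me3. H3K27me3 hardly differed in length between the cultures, at 160036 bp of the 7 windows in Low-Chir against 159699 bp in Boost-Chir. H3K4me3 covered 29.2 kb of the Low-Chir windows but 22.2 kb of the Boost-Chir windows. It was shorter in Boost-Chir at LHX1, LHX5, SIM1 and ISL1, and longer at POU4F1, GATA2 and GATA3. The ratio of Boost-Chir to Low-Chir length ran from 0.221 at SIM1 to 1.29 at GATA3. Over the whole H3K4me3 lists that ratio was 1.29. The Boost-Chir H3K4me3 library was 1.21 times as deep, judged by the genome-wide background recovered from the peak values.

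**Figure D1:**
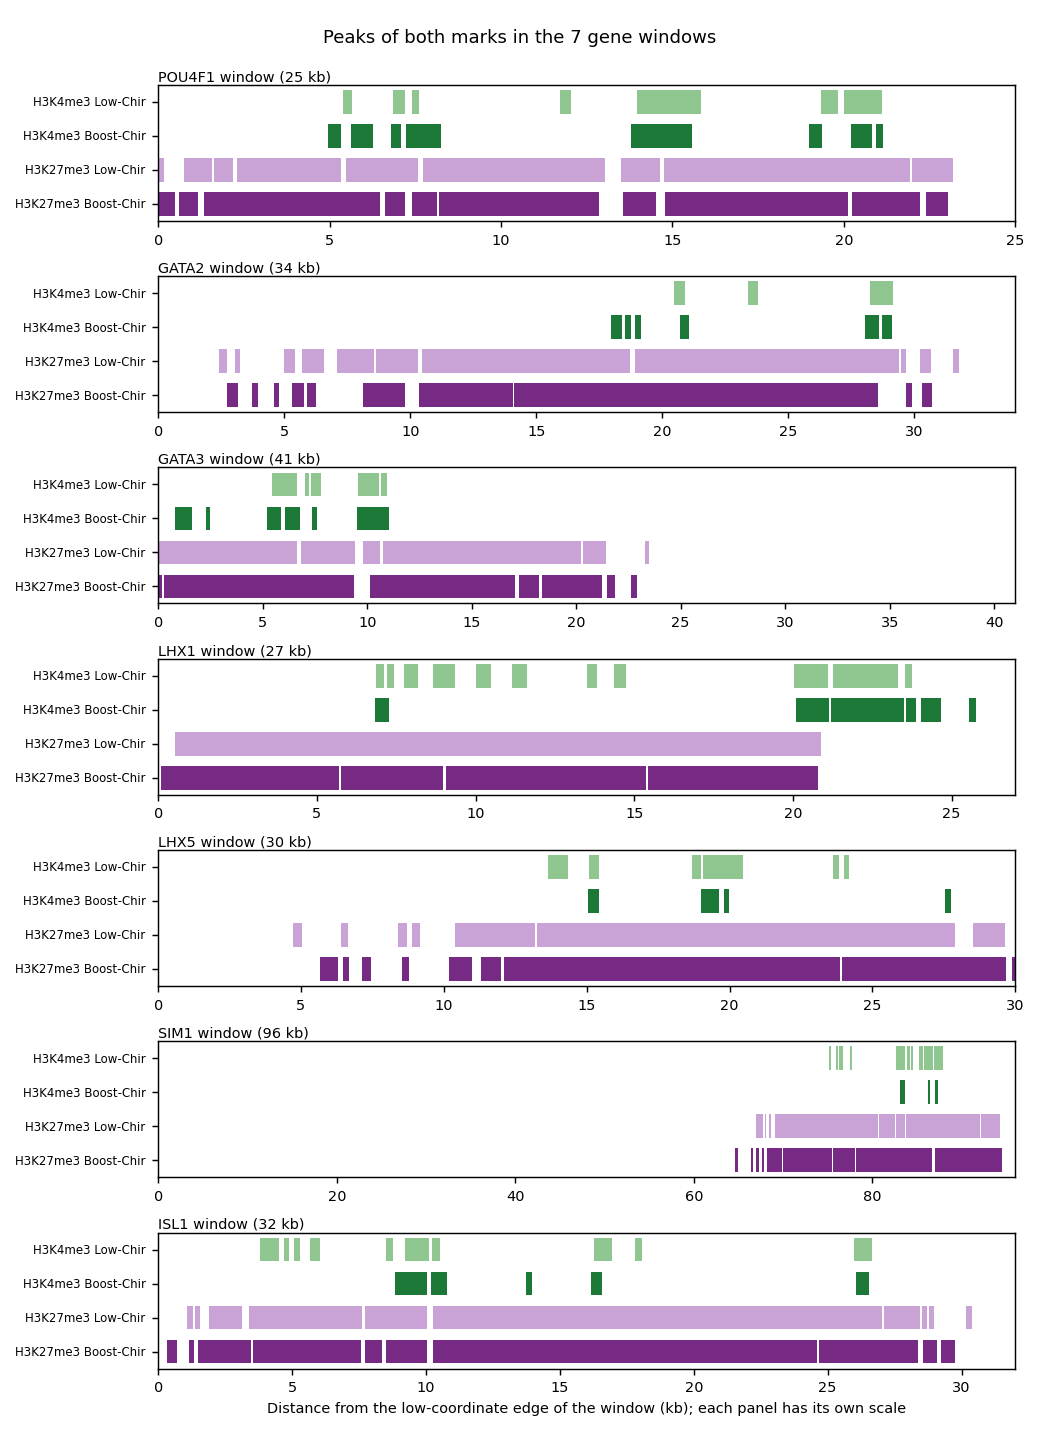
Peaks of each list in the 7 windows. The horizontal axis is the distance in kb from the low-coordinate edge of the window, with its own scale in each panel, and each row is 1 library. H3K27me3 fills much of every window in both cultures except SIM1, where it lies at one end, while H3K4me3 is in short blocks, fewer in Boost-Chir at LHX1, LHX5, SIM1 and ISL1.

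Promoters rich in CpG dinucleotides are the usual site of both H3K4me3 and Polycomb domains. RefSeq promoter sequences (250 bases before to 50 after a start, build GRCh38.p14) were matched for 5 of the 7 genes, with 12 starts in all. For a gene with several starts, the one with the most CpG was taken, so its rank is high in part by choice. A pair of genes with longer H3K4me3 in Boost-Chir (POU4F1, GATA3) and a pair with shorter H3K4me3 (SIM1, ISL1) are shown, read 5′ to 3′ with every CG in capitals. Their coordinates are on another build than the peaks and were not set against them.
POU4F1 promoter, GRCh38.p14, chr13:78603503-78603802, minus strand: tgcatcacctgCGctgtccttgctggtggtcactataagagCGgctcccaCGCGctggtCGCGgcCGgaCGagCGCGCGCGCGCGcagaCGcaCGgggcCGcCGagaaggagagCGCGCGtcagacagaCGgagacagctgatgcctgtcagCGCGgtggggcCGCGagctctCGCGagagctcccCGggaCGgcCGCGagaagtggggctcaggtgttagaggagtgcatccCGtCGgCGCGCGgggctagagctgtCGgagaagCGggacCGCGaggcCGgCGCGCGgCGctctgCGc
GATA3 promoter, GRCh38.p14, chr10:8053391-8053690, plus strand: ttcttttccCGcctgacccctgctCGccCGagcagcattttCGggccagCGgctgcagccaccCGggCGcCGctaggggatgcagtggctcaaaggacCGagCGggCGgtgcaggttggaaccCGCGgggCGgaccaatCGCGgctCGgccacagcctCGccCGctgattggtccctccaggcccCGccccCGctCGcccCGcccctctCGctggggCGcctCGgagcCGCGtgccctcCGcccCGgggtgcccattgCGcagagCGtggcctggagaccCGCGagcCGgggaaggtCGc
SIM1 promoter, GRCh38.p14, chr6:100464407-100464706, minus strand: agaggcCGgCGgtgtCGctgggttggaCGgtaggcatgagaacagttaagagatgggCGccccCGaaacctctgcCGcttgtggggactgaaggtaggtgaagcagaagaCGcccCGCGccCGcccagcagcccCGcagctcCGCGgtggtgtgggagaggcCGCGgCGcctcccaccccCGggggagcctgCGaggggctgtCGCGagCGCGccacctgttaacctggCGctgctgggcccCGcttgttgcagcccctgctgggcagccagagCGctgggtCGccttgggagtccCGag
ISL1 promoter, GRCh38.p14, chr5:51383198-51383497, plus strand: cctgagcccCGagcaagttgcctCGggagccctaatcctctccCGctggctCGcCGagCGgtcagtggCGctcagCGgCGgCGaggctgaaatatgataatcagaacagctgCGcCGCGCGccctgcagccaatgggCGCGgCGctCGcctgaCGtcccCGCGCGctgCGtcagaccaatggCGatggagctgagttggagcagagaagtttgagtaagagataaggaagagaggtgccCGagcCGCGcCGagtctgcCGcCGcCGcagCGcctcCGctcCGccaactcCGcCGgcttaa

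The POU4F1 promoter held 47 CpG, more than 97.6% of the 35116 promoters of the table, whose median was 14. GATA3 and ISL1 held 36 each, above 87.3% of promoters. SIM1 held 28, above 73.8%, and GATA2, not printed, held 29. The CpG numbers of the genes with longer H3K4me3 (29 to 47) and of those with shorter H3K4me3 (28 and 36) overlapped. The letters CTTTGA and CTTTGT, the core bound by TCF and LEF factors of the WNT pathway, were searched on both strands. A match was found in 1 of the 5 promoters, that of GATA3, against 26.2% of all 35116. A match is a description of letters and not a binding site.

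The H3K27me3 domains were among the longest of the lists. Peaks of both cultures were joined within 3 kb into 7868 H3K27me3 loci, and each window held 1 such locus. By Low-Chir length the loci ranked from 55 (GATA3) to 140 (LHX5), and by Boost-Chir length from 50 (GATA3) to 123 (LHX1). The GATA3 locus spanned 36991 bp, reached past the low-coordinate edge of its window, and held 34.0 kb under peaks in each culture. The ISL1 locus held 26962 bp under peaks in Low-Chir against 28416 bp in Boost-Chir. The SIM1 locus held 26.2 and 26.8 kb, all in the part of the 96 kb window from 64.6 to 94.6 kb, the side of the gene's start, since SIM1 is read from the minus strand.

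Within the windows, H3K27me3 lengths in Low-Chir and Boost-Chir were 21.5 and 21.1 kb at POU4F1, which is 86.0% and 84.4% of the window. They were 20.8 and 20.7 kb at GATA3 and 20.4 and 20.5 kb at LHX1. At GATA2 they were 24.5 and 22.2 kb, where the length fell by 2283 bp, the only change over 1 kb inside a window. LHX5 had 19.7 and 20.6 kb, SIM1 26.2 and 26.8 kb, and ISL1 26962 and 27872 bp. The sign of these small changes turned under at least 1 alternative at 5 genes, the exceptions being GATA2, from -2523 to -717 bp, and SIM1, from 315 to 2653 bp. Over the whole locus, past the window edges, the change was 2395 bp at LHX5 and 1454 bp at ISL1, both over 1 kb. It was 21 bp at POU4F1, -51 bp at GATA3 and -81 bp at LHX1. The loci of GATA2 and SIM1 did not reach past their windows. The same bases were marked in both cultures for the most part, with 83.8% (GATA2) to 98.3% (LHX1) of the Low-Chir length also under a Boost-Chir peak.

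Of the 7 H3K27me3 loci, 4 were longer and 3 shorter in Boost-Chir, where 45.2% of all loci were longer and 54.7% shorter. None changed by 5 kb or more in either direction, against 0.305% of all loci at least 5 kb longer and 1.22% at least 5 kb shorter. The count is near these shares, but they are over loci of all lengths, while these 7 were among the longest. With 7 loci and shares this low, the count says little. The ratio of Boost-Chir to Low-Chir total length was 0.998 for the 7 windows and 0.901 for the whole lists. The median of the ratios was 1.01 over the 7 windows, 0.917 over the 4499 loci in both lists and 0.940 over the 426 of these with at least 10 kb in either culture.

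**Figure D2:**
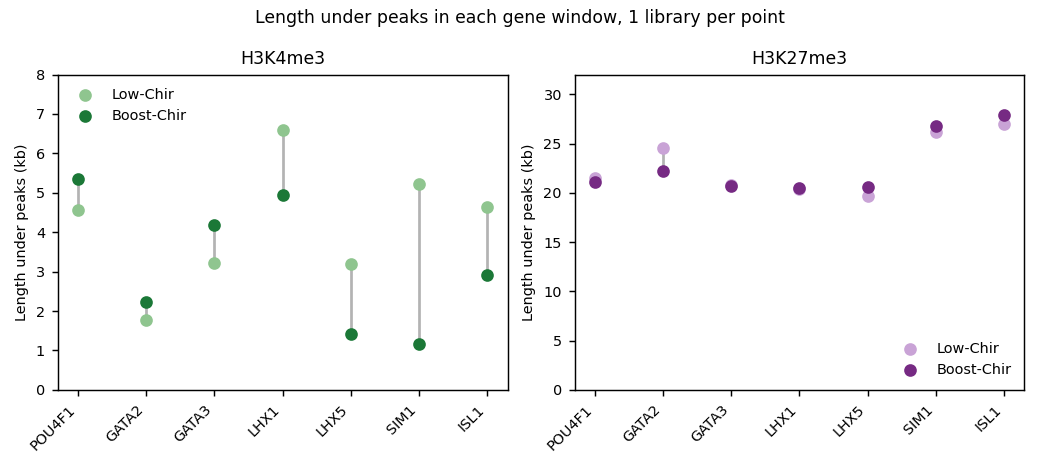
Length under peaks (kb) in each window for H3K4me3 (left) and H3K27me3 (right). Each point is 1 library, and a grey line joins the cultures. The H3K27me3 points lie almost on top of each other except at GATA2, while H3K4me3 drops from 5.23 to 1.15 kb at SIM1 and rises from 3.23 to 4.17 kb at GATA3.

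POU4F1 kept 3 groups of H3K4me3 peaks inside its Polycomb domain. The total was 4.55 kb under 7 Low-Chir peaks against 5.35 kb under 8 Boost-Chir peaks. On the low-coordinate side, at chr13:79167954-79171261, the length went from 816 bp (Low-Chir) to 2347 bp (Boost-Chir). The middle group, at chr13:79174721-79178823, had 2163 and 1795 bp, and the group on the high-coordinate side, at chr13:79181987-79184139, had 1573 and 1209 bp. So the gain was at 1 group and the other 2 were shorter. With peaks within 3 kb joined and the gaps counted, the change of the whole window was -830 bp. The strongest Low-Chir peak, at 7.94-fold enrichment over the local background, was in the high-coordinate group, and the strongest Boost-Chir peak, at 7.01-fold, in the low-coordinate group. In the middle group the summit held 18 reads in Low-Chir and 31 in Boost-Chir.

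GATA2 had the least H3K4me3 of the 7 in Low-Chir, 1764 bp under 3 peaks, and 2242 bp under 6 peaks in Boost-Chir. The strongest peak of both cultures lay at nearly the same place, with summits at 128216732 and 128216889. It reached 5.70-fold with 19 reads in Low-Chir and 5.64-fold with 26 reads in Boost-Chir. In Low-Chir the peak there was under H3K27me3. In Boost-Chir the H3K27me3 peak ended before it, and 422 bp of GATA2 H3K4me3 lay outside H3K27me3, against 0 bp in Low-Chir. The small difference in total length was reversed, at -265 bp, when only the top 50% of each list by −log10 q was used.

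GATA3 had the largest relative gain in length. Its H3K4me3 went from 3229 bp under 5 peaks to 4172 bp under 6 peaks. The main block was a peak of 1542 bp in Boost-Chir, at chr10:8095507-8097048, with an 8.86-fold summit and 32 reads. In Low-Chir the same place had 2 peaks, the higher at 4.86-fold with 19 reads. Another 2 Boost-Chir peaks, of 828 and 200 bp near the low-coordinate edge, had no Low-Chir peak over them. With windows 5 kb narrower on each side, which drops that edge, the change was -85 bp. The change was 2072 bp in the top 50% of each list, 2727 bp at a −log10 q of at least 5 and 4730 bp with peaks within 3 kb joined.

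LHX1 showed a loss within the Polycomb domain beside a strong block that lay mostly outside it. At chr17:35291820-35299754, H3K4me3 covered 3230 bp in 8 Low-Chir peaks and 461 bp in 1 Boost-Chir peak, a ratio of 0.143. Enrichment of the 8 Low-Chir peaks ran from 2.82-fold to 5.29-fold, where the median of the list was 5.00-fold, and 3 of the 8 lay just inside the top 50% of the list by −log10 q. The 1 Boost-Chir peak reached 5.91-fold with 21 reads. At the other end of the window, at chr17:35305035-35310757, H3K4me3 was longer in Boost-Chir, with 3357 and 4492 bp. This block held the strongest peak of all 7 windows, at 12.8-fold with 40 reads in Low-Chir and 9.08-fold with 49 reads in Boost-Chir, and most of it lay beyond the end of H3K27me3. RefSeq places AATF next to LHX1 on that side, and whether the block belongs to AATF or LHX1 was not tested. Inside the span of the H3K27me3 locus alone, LHX1 H3K4me3 went from 4.09 to 1.27 kb.

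LHX5, the close relative of LHX1, had 3199 bp in 6 peaks in Low-Chir and 1406 bp in 4 peaks in Boost-Chir. The strongest peak stayed in place, with summits 36 bp apart, at 5.29-fold with 16 reads and 5.03-fold with 19 reads. The block at chr12:113908683-113910465 went from 1712 to 833 bp. The pair of Low-Chir peaks at chr12:113913613-113914201, 436 bp together, had no Boost-Chir peak. All LHX5 H3K4me3 lay under H3K27me3 in both cultures. The change was -1793 bp over the window and -1393 bp with peaks at a −log10 q of at least 5. In the top 50% of each list it was 373 bp, a setting that just leaves out the strongest Low-Chir peak (its −log10 q exceeds 49.5% of the list) and the Low-Chir peak of 1403 bp (49.3%).

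SIM1 had the largest loss, from 5225 bp in 11 Low-Chir peaks to 1153 bp in 3 Boost-Chir peaks. Every base under a Boost-Chir peak was also under a Low-Chir peak, and 8 of the 11 Low-Chir peaks had no Boost-Chir peak over them. The strongest peak had nearly the same place and height in both cultures. Its summits were 49 bp apart, with 24 reads and 6.73-fold in Low-Chir and 29 reads and 6.78-fold in Boost-Chir. Per unit of depth these were 10.9 and 10.8 times the genome-wide background. The block at chr6:100908672-100913937 went from 4053 to 1153 bp, and the one at chr6:100901114-100903725 from 1172 to 0 bp. The Low-Chir peaks other than the strongest had 3.06-fold to 5.25-fold enrichment, and the change in the top 50% of each list was -2122 bp.

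At ISL1 the H3K4me3 peaks on one side, among them the strongest Low-Chir peak by fold, had no Boost-Chir peak over them, and the next block was higher in Boost-Chir. The total went from 4640 bp in 10 peaks to 2902 bp in 5 peaks. ISL1 is read from the plus strand, so the low-coordinate side is upstream. There, 4 Low-Chir peaks between 50672814 and 50675052, with up to 6.59-fold enrichment and 21 reads, had no Boost-Chir counterpart. At the next block, a Low-Chir peak of 909 bp with 5.34-fold and 21 reads stood against a Boost-Chir peak of 1212 bp with 7.38-fold and 33 reads. Over all peaks of the window the change was -1738 bp, and with the top 50% of each list it was 359 bp.

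Set against all loci, the windows of LHX1, LHX5, SIM1 and ISL1 departed from the usual direction for H3K4me3. At POU4F1, GATA2 and GATA3, H3K4me3 was longer in Boost-Chir over the window, as at most loci. Single loci could differ from their window, as at POU4F1, LHX1 and LHX5. The 7 windows held 16 of the 16580 H3K4me3 loci. Of these 16, 6 were longer in Boost-Chir, against 79.7% of all loci and 64.2% of the 3548 loci that held H3K27me3 in Low-Chir. The other 10 were shorter, against 20.2% of all loci and 35.7% of those with H3K27me3. Of the 16, 2 were at least 2 kb shorter, those of LHX1 and SIM1 named above, against 0.344% of all loci and 0.874% of those with H3K27me3. None was at least 2 kb longer, against 7.18% of all loci and 4.54% of those with H3K27me3. Neighbouring loci of 1 gene are not independent, and with the top 50% of each list H3K4me3 was longer in 4 of the 7 windows.

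Peak by peak, a contrast was seen for the Low-Chir peaks of LHX1, LHX5, SIM1 and ISL1. Of the 53 Low-Chir H3K4me3 peaks of the windows, 27 (50.9%) had no Boost-Chir peak over them, against 16.4% of the Low-Chir list and 25.4% of its 5906 peaks under H3K27me3. By gene these were 6 of 11 peaks at LHX1, 4 of 6 at LHX5, 8 of 11 at SIM1 and 6 of 10 at ISL1. At POU4F1, GATA2 and GATA3 they were 1 of 7, 1 of 3 and 1 of 5. Of the 38 Boost-Chir peaks, 10 (26.3%) had no Low-Chir peak over them, against 40.4% of that list. This was close to the 28.8% of its peaks under H3K27me3. The unmatched Low-Chir peaks were mostly weak, with a median of 3.68-fold, and 3 of the 27 were in the top 50% of the list by −log10 q. Of all 53 Low-Chir peaks of the windows 15 were in that top 50%, so they were weaker than the list as a whole. The shares set beside them were not matched for peak strength. A place without a peak is below the calling threshold and need not be without H3K4me3.

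Most H3K4me3 length lay under H3K27me3 in both cultures in every window but that of LHX1, where most of it lay outside in Boost-Chir. All 7 windows had bases under peaks of both marks in both cultures, from 1.76 kb at GATA2 to 5.23 kb at SIM1 in Low-Chir and from 1.09 kb at SIM1 to 4.82 kb at POU4F1 in Boost-Chir. The share of all H3K27me3 loci that held H3K4me3 was not counted, so this count has no share beside it. Of the 53 Low-Chir H3K4me3 peaks, 51 overlapped H3K27me3, and of the 38 Boost-Chir peaks 33 did, where 13.4% and 12.0% of the whole lists did. Outside LHX1, the share of H3K4me3 length under H3K27me3 ran from 88.7% (GATA3) to 100% (GATA2, LHX5, SIM1) in Low-Chir and from 81.2% (GATA2) to 100% (LHX5) in Boost-Chir. At LHX1 it was 62.1% and 23.4%. Peaks of both marks in a bulk culture may come from different cells or chromosome copies.

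**Figure D3:**
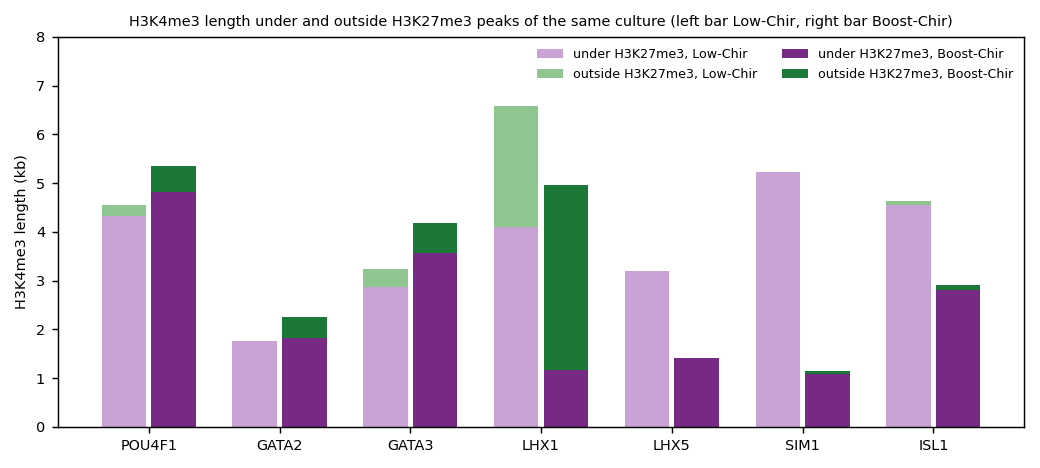
H3K4me3 length (kb) in each window, split into the part under H3K27me3 peaks of the same culture (purple) and the part outside them (green), with the Low-Chir bar on the left and the Boost-Chir bar on the right of each pair. The bars are mostly purple except at LHX1 in Boost-Chir, where 3792 of 4953 bp lie outside. Of these, 3685 bp lie beyond the H3K27me3 locus, in the block that may belong to AATF or LHX1.

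By summit height the genes stood in another order than by length, but several were too close to be told apart. In Boost-Chir, for example, the highest H3K4me3 summit had 32 reads at GATA3 and 31 at POU4F1. The reads at the highest summit inside each window, divided by the genome-wide background of the library, put the libraries on 1 scale of depth. For H3K4me3 in Low-Chir the order was LHX1 (18.1), POU4F1 (12.2), SIM1 (10.9), ISL1 (9.49), GATA2 and GATA3 (8.59 each) and LHX5 (7.23). In Boost-Chir it was LHX1 (18.3), ISL1 (12.3), GATA3 (11.97), POU4F1 (11.6), SIM1 (10.8), GATA2 (9.73) and LHX5 (7.11). The LHX1 window was highest and that of LHX5 lowest in both. In both cultures the highest LHX1 summit lay beyond the H3K27me3 locus, in the block that may belong to AATF or LHX1. In the LHX1 block at chr17:35291820-35299754 the highest summit was 8.59 times the background in Low-Chir and 7.86 times in Boost-Chir. The ratio of Boost-Chir to Low-Chir ran from 0.950 at POU4F1 to 1.39 at GATA3, with a median of 1.01, and was above 1 at 4 genes, where 66.9% of the 14475 loci in both lists were higher in Boost-Chir and the median was 1.08. The reads behind the GATA3 ratio were 19 (exact Poisson 95% interval 11.4 to 29.7) and 32 (21.9 to 45.2). These intervals cover counting error only and take no account of the choice of the highest summit. They overlapped at each of the 7 genes once divided by the background.

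H3K27me3 summits were close to each other across the 7 genes, from 13.8 times the background (GATA3) to 16.3 times (POU4F1) in Low-Chir and from 12.2 times (POU4F1 and ISL1) to 14.5 times (LHX1) in Boost-Chir. All 7 were lower in Boost-Chir, with ratios from 0.747 at POU4F1 to 0.964 at LHX1 and a median of 0.915. Of the 4499 loci in both lists, 69.1% were lower in Boost-Chir, with a median of 0.926. Over the 426 of these with at least 10 kb in either culture the median was 0.902, so the 7 genes were near the general shift. POU4F1 lay below it, with 51 reads (38.0 to 67.1) in Low-Chir and 37 reads (26.1 to 51.0) in Boost-Chir.

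**Figure D4:**
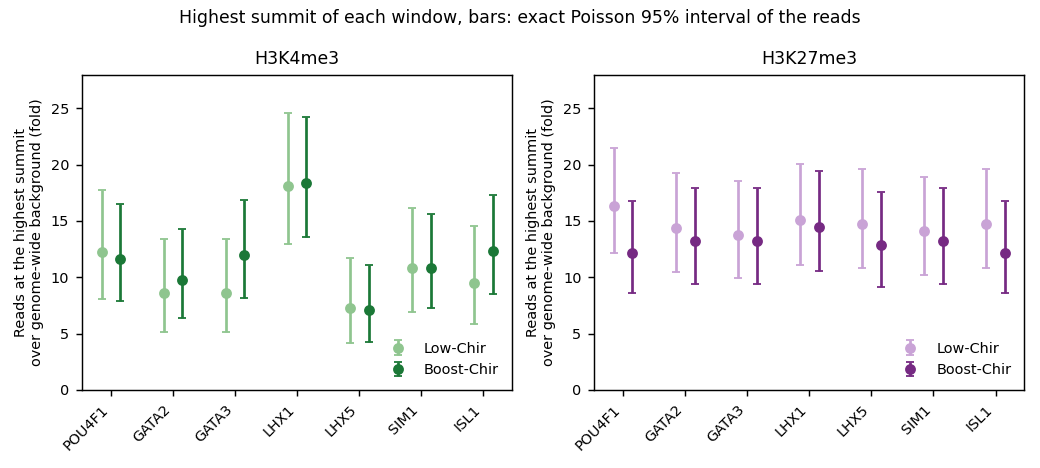
Reads at the highest summit inside each window over the genome-wide background of the library, for H3K4me3 (left) and H3K27me3 (right). Points are single libraries and bars are exact Poisson 95% intervals of the reads, which overlap between the cultures at every gene. The LHX1 window is the highest for H3K4me3 in both, at a summit beyond the H3K27me3 locus that may belong to AATF or LHX1.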

How the data were processed

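Day 11 neural progenitors from H9 were profiled by ChIP-seq for H3K4me3 and H3K27me3, once per culture, and were grouped by title. The input libraries are not analysed here. The submitters' processing notes name cutadapt 1.6, BWA 0.7.12, Picard and build hg19. No source used here gives the peak caller. Peak names in the deposited lists show that each library was called alone against the input of its culture. The authors deposited a fold enrichment (a ratio over local background), −log10 p-values and q-values, a summit and a score per peak. The score was not used. Fold was ranked only within a list, apart from the count of highest peaks by fold given below. Fold values and raw reads given side by side for both cultures are not adjusted for depth.

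The windows were given as a list of coordinates, and all 7 genes are named. The members and lists were chosen with earlier results of these data known. No annotation of hg19 was used. Covered length is the union of peaks cut to the window. Summit reads and genome-wide background were recovered from fold and p with a pseudocount of 1 on each side of the ratio and Poisson p-values, which gave back the deposited −log10 p within 0.001 for 100% of peaks. The recovered background was taken as the measure of depth, and read totals were not compared. For H3K4me3 it was 2.21 reads (Low-Chir) and 2.67 reads (Boost-Chir), and for H3K27me3 3.12 and 3.03 reads. The code was tested on simulated data. Tools were Python 3.11.15, numpy 2.4.6, scipy 1.17.1 and matplotlib 3.10.9.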

Additional observations from a re-analysis of the deposited data

How the results depend on the processing

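No paired analysis was possible because there is only 1 library for every mark and culture. The number of windows with more H3K4me3 in Boost-Chir, 3 of 7, was 1 when peaks within 3 kb were joined and the gaps counted, and from 2 to 4 under the other 7 alternatives, of which the span of the H3K27me3 locus was chosen after seeing the data. The number with less H3K27me3, also 3, was 5 with joined peaks. Of the 14 pairs of window and mark, 7 were longer in Boost-Chir, and 3 with joined peaks. By fold the highest peak was higher in Boost-Chir at 7 of the 14, and by reads over background at 4. The counts are not alike, since only the second was limited to summits inside the window. For GATA3 H3K27me3 the Boost-Chir peak of 10.4-fold had its summit outside. With the summit inside it was 8.71-fold, against 10.0-fold in Low-Chir. Fold is also not adjusted for depth between lists. With the top 50% of each list, 1 locus passed the limits of size in place of 2. H3K4me3 at LHX1 and SIM1 was shorter in Boost-Chir under all 8 alternatives, from -5478 to -604 bp and from -4072 to -2122 bp. The sign of the change turned at POU4F1 (-830 bp with joined peaks), at GATA2 under 3 alternatives, and at GATA3, LHX5 and ISL1 under 1 each. For H3K27me3 it turned under 3 of 7 alternatives at LHX1 and LHX5, and under 1 at POU4F1, GATA3 and ISL1. Both marks overlapped in all 7 windows under every alternative except the top 50%, where Low-Chir had 6. The median summit of a list held 17 to 20 reads over a background of 2.21 to 3.12 reads, which limits what can be said of weak peaks.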

Other observations

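The H3K27me3 summits with the most reads lay at different places of the domains in the cultures, but several places in a domain were close in height. The summits with the most reads were 9.97 kb apart at LHX1, 9.54 kb at GATA3, 9.52 kb at GATA2, 6.74 kb at SIM1 and 6.25 kb at POU4F1, and 1.12 and 0.344 kb apart at LHX5 and ISL1. At LHX1 the Boost-Chir summit of 44 reads stood beside a pair of peaks with 43 reads each. At GATA2 the Low-Chir peaks held 45 and 44 reads, and by fold the highest summits were at 128204343 (Low-Chir) and 128204499 (Boost-Chir). The places therefore rest on few reads. For H3K4me3 they were 36 to 495 bp apart at LHX5, SIM1, LHX1, GATA2 and GATA3, and 5.51 and 5.73 kb apart at ISL1 and POU4F1, where at ISL1 3 Low-Chir peaks tied at 21 reads. At LHX1, the H3K27me3 domain was called in Low-Chir as 1 peak of 20.4 kb and another of 461 bp across the window edge, whereas the longest of the 4 Boost-Chir peaks was 6.33 kb. At GATA2 the longest Low-Chir peak was 10.5 kb and the longest Boost-Chir peak 14.5 kb.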
